A study of Volvox carteri with 4 samples.

Results

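Pyruvate kinase was represented in *Volvox carteri* by 5 genes, named PYK1 to PYK5, out of 16008 gene models with a count table entry. They are the loci Vocar.0028s0006 (PYK1), Vocar.0002s0096 (PYK2), Vocar.0008s0405 (PYK3), Vocar.0014s0005 (PYK4) and Vocar.0044s0014 (PYK5), taken by locus identifier from the study's list of central carbon metabolism genes, and all 5 passed the filter on low counts. *V. carteri* is a green alga built of only a pair of cell-types: gonidia, the large germ cells inside the spheroid, and somatic cells, the small flagellated cells at its surface, which do not divide again. Polyadenylated RNA was sequenced from 2 gonidial and 2 somatic libraries of the female strain Eve, all taken from hatched adult spheroids in the light period before gonidia begin to cleave. Every library came from its own set of pooled culture flasks, and a culture gave only one of the cell-types, so that the replicate numbers pair no libraries. Gonidia and somatic cells were isolated by different steps, with a looser pestle and slower spins for gonidia. Effects of this handling and of cell-type cannot be told apart. The labels name no mutation and no treatment for either group. P-values of the edgeR fits rest on the spread between preparations of this single strain at this single stage. With 2 libraries per cell-type, most of the spread assigned to a gene is borrowed from the other genes (residual degrees of freedom 2, prior 17.1).

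Pyruvate kinase catalyses the last step of glycolysis, in which phosphoenolpyruvate gives up its phosphate to ADP and pyruvate is formed. The step is in effect one-way in cells. Phosphoenolpyruvate carboxykinase (PCK) works in the opposing direction of metabolism by making phosphoenolpyruvate from oxaloacetate for gluconeogenesis. Pyruvate feeds the pyruvate dehydrogenase complexes, which supply acetyl-CoA to respiration in the mitochondrion and to fatty acid synthesis in the chloroplast. Plants and algae carry several pyruvate kinase genes, whose products can lie in the cytosol or in plastids. The localization predictions that accompany the study's list, made on the *Chlamydomonas* counterparts, place all 5 in the class for proteins outside chloroplast, mitochondrion and secretory pathway.

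The libraries held 11583555 and 11650101 counts in gonidia 1 and 2 and 10838222 and 13104583 in somatic 1 and 2. Levels below are normalized counts, which are counts divided by the library's size relative to the mean size, or the same per kilobase of gene model where genes are compared with each other. The somatic master regulator regA had 1 and 0 counts in gonidia 1 and 2 against 486 and 786 in somatic 1 and 2. The 27 intraflagellar transport genes, which build flagella, were all called somatic (calls are defined below), beside 26.0% of all genes tested. Their summed level in gonidia 1 and 2 was 3.15% and 3.02% of the somatic mean, with none of them at 0. The 19 genes of the gonidial cDNA clone list summed in somatic 1 and 2 to 56.3% and 43.4% of the gonidial mean, again with none at 0. Of these, 9 were called gonidial and 2 somatic, where 46.7% and 26.0% of all genes tested were. The gonidial calls of the clone list were thus near the share over all genes. The labels of the 4 libraries matched regA and the flagellar genes, while the summed level of the clone list separated the cell-types less sharply.

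The family divided between the cell-types. PYK1, PYK2 and PYK5 were higher in gonidia, by 18.4-fold, 131-fold and 10.3-fold in mean normalized count, whereas PYK3 was 128-fold higher in somatic cells and PYK4 differed by only 1.91-fold. With a call defined as an adjusted p under 0.05 in edgeR's quasi-likelihood test and a change of at least 2-fold, 3 members were gonidial, 1 was somatic and 1 was neither. Among all 13350 genes tested, 46.7% were called gonidial and 26.0% somatic, 72.7% in all, so calls in either direction were common. All 5 members had both libraries of one cell-type above both of the other, which also held for 90.6% of the genes tested. Each of the 4 called members changed by more than 5-fold, the study's boundary for cell-type-specific genes, which 29.1% of genes passed toward gonidia and 16.9% toward somatic cells.

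**Figure D1:**
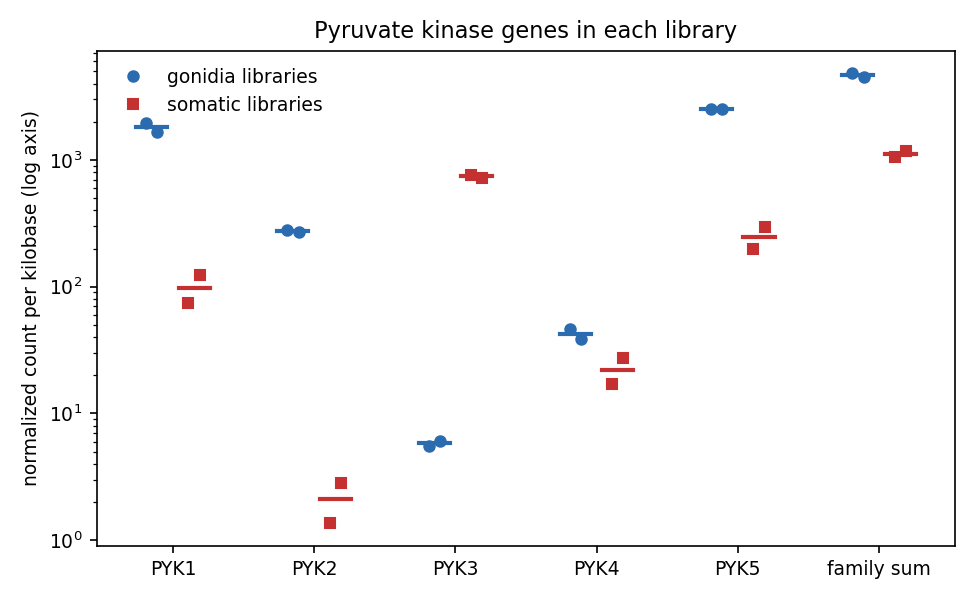
Normalized count per kilobase (log axis) of PYK1 to PYK5 and of their sum in each library. Blue circles are the gonidial libraries, red squares the somatic libraries and horizontal bars the means of 2 libraries. PYK3 is the lowest of the 5 in gonidia at 5.82 and the highest in somatic cells at 743.

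PYK5 was the most abundant pyruvate kinase transcript of gonidia. Its counts were 10405 and 9939 in gonidia 1 and 2 and 779 and 1491 in somatic 1 and 2. Both gonidial libraries were far above both somatic libraries, and the somatic pair differed from each other more than the gonidial pair did. In normalized counts the level was 10801 ± 26.0 in gonidia and 1047 ± 297 in somatic cells (SD, n = 2 each). The log2 fold change of somatic over gonidia was -3.37 (SE 0.24, 95% interval -3.86 to -2.87, adjusted p = 1.55e-10, edgeR). PYK5 thus kept a sizeable somatic level, at 7.75% and 11.6% of the gonidial mean in somatic 1 and 2.

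PYK1 was the other abundant gonidial member. It had 8191 and 6673 counts in gonidia 1 and 2 and 299 and 635 in somatic 1 and 2. The groups did not overlap, and somatic 2 was 1.67-fold above somatic 1 in normalized count. The means were 7878 ± 904 in gonidia and 428 ± 152 in somatic cells (SD, n = 2 each). The log2 fold change was -4.20 (SE 0.27, 95% interval -4.75 to -3.64, adjusted p = 3.10e-11, edgeR). In somatic 1 and 2, PYK1 stood at 4.08% and 6.80% of its gonidial mean.

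PYK2 came closest to being limited to gonidia. Its counts were 637 and 590 in gonidia 1 and 2 against 3 and 8 in somatic 1 and 2. The few somatic reads make the size of the change uncertain, although the groups were widely apart. Pooled over libraries, 1227 gonidial and 11 somatic counts gave a normalized ratio of 125, with a 95% interval of 69.8 to 252 that covers counting error only. The log2 fold change was -6.94 (SE 0.37, 95% interval -7.72 to -6.16, adjusted p = 2.82e-12, edgeR), the widest standard error of the 5. Without somatic 2 the fitted fold rose from 123 to 194, and without somatic 1 it fell to 94.8. Among the 141 carbon metabolism genes tested, PYK2 had the 2nd most gonidial fold change and PYK3 the 2nd most somatic one.

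PYK3 was the somatic pyruvate kinase. It had 45 and 47 counts in gonidia 1 and 2 and 5953 and 7214 in somatic 1 and 2. Both pairs of replicates were close, at 46.8 and 51.0 normalized counts in gonidia and 6396 and 6084 in somatic cells, and the cell-types were far apart. The log2 fold change was 6.99 (SE 0.27, 95% interval 6.42 to 7.57, adjusted p = 4.46e-14, edgeR). Only 3.11% of the genes tested had a higher fold change. In gonidia 1 and 2 PYK3 stood at 0.750% and 0.817% of its somatic mean, below the 3.15% and 3.02% of the summed intraflagellar transport genes and above the 0.175% and 0 of regA. The part of somatic RNA in that gonidial trace of PYK3 was not tested.

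PYK4 was low in both cell-types and was not called. It had 423 and 335 counts in gonidia 1 and 2 and 150 and 307 in somatic 1 and 2. In normalized counts gonidia (402 ± 54.0) were above somatic cells (210 ± 69.1, SD, n = 2 each) without overlap, the nearest pair being 363 in gonidia 2 and 259 in somatic 2. The log2 fold change was -0.93 (SE 0.27, 95% interval -1.49 to -0.37, adjusted p = 0.00356, edgeR), short of 2-fold. An adjusted p under 0.05, whatever the size of the change, was reached by 80.9% of the genes tested. It lay next to the median of all genes tested, -0.85, and 48.7% of genes had a lower value. Under edgeR's TMM normalization the log2 fold change of PYK4 was -0.34 (adjusted p = 0.171, edgeR), and with DESeq2's size factors it was -0.23 (adjusted p = 0.386, edgeR). The call also turned on single libraries. PYK4 was called gonidial without gonidia 2 (-1.06, adjusted p = 0.00599, edgeR) and without somatic 2 (-1.32, adjusted p = 2.39e-06, edgeR). Relative to the median of all genes it was at 0.18 without somatic 1 and at -0.39 without somatic 2, so that its sign there depended on which somatic library was kept.

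How the libraries were scaled moved all fold changes together. The median log2 fold change of the genes tested was -0.85 with the study's size factors, -0.73 with plain totals, -0.26 under TMM and -0.15 under DESeq2's size factors. The calls over all genes accordingly shifted from 6233 gonidial and 3471 somatic, or 64.2% gonidial, to 5070 and 4295 with TMM, or 54.1%, and to 4853 and 4477 with DESeq2's size factors, or 52.0%. Relative to the median of all genes, PYK1 was at -3.34, PYK2 at -6.09, PYK3 at 7.85, PYK4 at -0.08 and PYK5 at -2.51. With DESeq2's size factors the folds of the 4 called members became 11.3 for PYK1, 76.2 for PYK2, 208 for PYK3 and 6.36 for PYK5, and the direction and the call of each were as before.

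**Figure D2:**
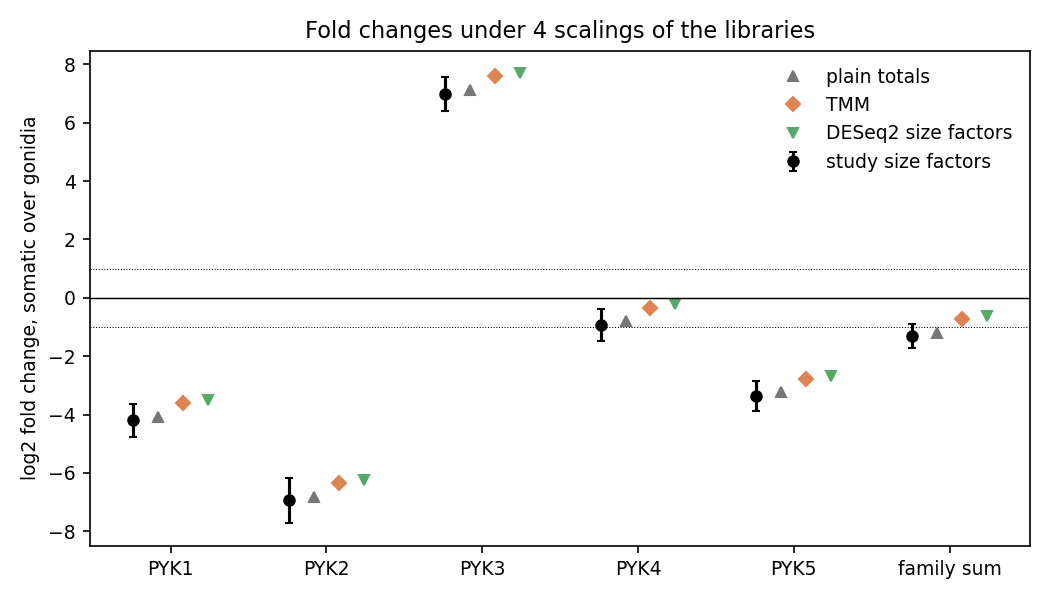
Log2 fold change of somatic over gonidia for the 5 genes and their summed count under 4 scalings of the libraries. Black circles carry the 95% interval of the fit with the study's size factors, and dotted lines mark 2-fold. PYK1, PYK2 and PYK5 stay below the lower line and PYK3 above the upper one, while PYK4 moves from -0.93 to -0.23.

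The levels of the 5 genes had a different order in each cell-type. Per kilobase of gene model, with models of 4.352, 2.366, 8.4, 9.462 and 4.256 kb for PYK1 to PYK5, the gonidial means were 2538 normalized counts for PYK5, 1810 for PYK1, 275 for PYK2, 42.4 for PYK4 and 5.82 for PYK3. In somatic cells the order was PYK3 at 743, PYK5 at 246, PYK1 at 98.4, PYK4 at 22.2 and PYK2 at 2.11. The order was identical in both libraries of a cell-type, and no neighbours in it overlapped in range. Among 143 carbon metabolism genes ranked per kilobase, PYK3 went from place 136 in gonidia to 37 in somatic cells, PYK2 from 78 to 137 and PYK5 from 40 to 66, while PYK4 was at 118 and 119.

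As shares of the family sum per kilobase, which do not depend on the scaling, the gonidial pool was nearly all PYK5 and PYK1 and the somatic pool mostly PYK3. PYK5 made up 52.6% and 56.2% in gonidia 1 and 2 and 18.7% and 25.2% in somatic 1 and 2. PYK1 made up 40.5% and 36.9% in gonidia and 7.03% and 10.5% in somatic cells. PYK3 held 0.115% and 0.135% of the gonidial sum and 72.5% and 61.7% of the somatic sum. In every library these genes carried most of the sum.

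PYK2 contributed 5.79% and 6.00% in gonidia and 0.130% and 0.243% in somatic cells. PYK4 contributed 0.962% and 0.851% in gonidia and 1.62% and 2.33% in somatic cells, so that its share was higher in somatic cells although its level was lower. For every gene the shares per kilobase did not overlap between cell-types, while the levels of 90.6% of all genes tested did not overlap either. An exact permutation test over 2 against 2 libraries cannot go below p = 0.333, two-sided, which is the value each share per kilobase gave. Without division by length, PYK3, whose gene model is long, held 78.8% of the somatic counts of the family and PYK5 13.1%. The shares of PYK4 in counts, 2.15% and 1.91% in gonidia and 2.09% and 3.18% in somatic cells, then overlapped (exact permutation p = 0.667, two-sided).

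**Figure D3:**
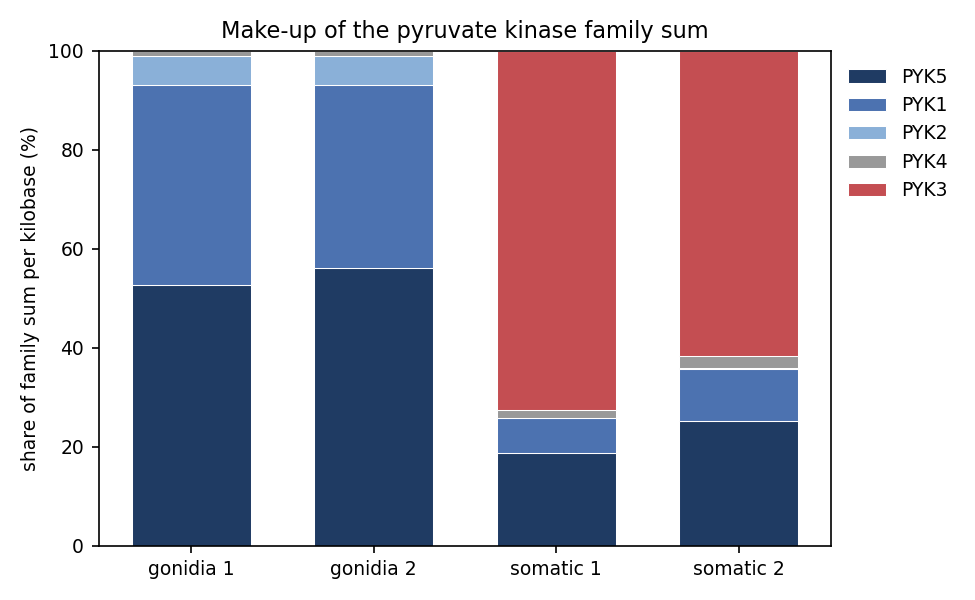
Share of each gene in the summed pyruvate kinase level per kilobase, in percent, with 1 bar per library. Shades of blue are PYK5, PYK1 and PYK2, gray is PYK4 and red is PYK3. PYK3 fills 72.5% and 61.7% of the somatic bars and is too small to see in the gonidial bars.

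The share of PYK3 was lower in somatic 2 than in somatic 1, and the other 4 members were all higher in somatic 2. The ratio of somatic 2 to somatic 1 in normalized count was 1.67 for PYK1, 2.09 for PYK2, 1.61 for PYK4 and 1.50 for PYK5, against 0.951 for PYK3. Over gonidial genes with a mean of at least 50 normalized counts the median of this ratio was 1.23, and over somatic genes 1.12. PYK2, at 0.495% and 1.04% of its gonidial mean in somatic 1 and 2, was nearest to absent there, while PYK1 and PYK5 in the same libraries were at 4.08% or more of theirs. The part of gonidial RNA in the somatic levels was not tested further. In RNA from many cells, fewer cells that express a gene and less RNA of it per cell cannot be told apart.

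Ratios between members within a library gave the same picture with the scaling cancelled. PYK5 exceeded PYK1 by 1.30 and 1.52 times in gonidia and by 2.66 and 2.40 times in somatic cells, per kilobase. The drop from gonidia to somatic cells was therefore larger for PYK1 than for PYK5 in every pairing of libraries. PYK3 was 0.00219 and 0.00240 times PYK5 in gonidia and 3.87 and 2.45 times PYK5 in somatic cells. PYK1 was 6.99 and 6.15 times PYK2 in gonidia and 54.2 and 43.2 times PYK2 in somatic cells.

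Summed over the 5 genes, pyruvate kinase RNA was higher in gonidia. The summed counts were 19701 and 17584 in gonidia 1 and 2 and 7184 and 9655 in somatic 1 and 2. The groups did not overlap, and the normalized means were 19781 ± 996 and 7930 ± 300 (SD, n = 2 each), a difference of 2.49-fold. The log2 fold change was -1.32 (SE 0.19, 95% interval -1.72 to -0.91, adjusted p = 3.85e-06, edgeR), which is -0.47 relative to the median of all genes. It fell short of 2-fold with TMM (-0.72, adjusted p = 0.00751, edgeR) and with DESeq2's size factors (-0.61, adjusted p = 0.0169, edgeR).

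Per kilobase the gonidial excess of the family was larger. The summed levels per kilobase were 4831 and 4512 in gonidia 1 and 2 and 1050 and 1173 in somatic 1 and 2, which is 4672 ± 226 against 1112 ± 86.8 (SD, n = 2 each) and 4.20-fold, or -2.07 in log2. The long PYK3 model weighs more in counts than per kilobase. Without PYK3 the remaining members summed to 4666 per kilobase in gonidia and 369 in somatic cells, 12.7-fold apart. PYK3 therefore supplied most of what the somatic cells had of pyruvate kinase RNA.

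The other genes of glycolysis and gluconeogenesis on the study's list were called gonidial more often than somatic, as were the genes tested as a whole. Of 15, all tested, 9 (60.0%) were called gonidial, 2 (13.3%) somatic and 4 neither, beside 46.7% and 26.0% of all genes tested, with a median log2 fold change of -1.39 beside -0.85 for all genes tested. Of the 136 tested carbon metabolism genes outside the pyruvate kinases, 57.4% were gonidial and 14.7% somatic, with a median of -1.22. With DESeq2's size factors, 5 of the 15 were gonidial (GAP2, PGM4, PGM5, PCK3 and PEPC2) and 3 somatic (PFK1, FBP1 and PCK2), where 36.4% and 33.5% of all genes tested were called gonidial and somatic.

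At the upper end of the pathway, where a second phosphate is put on fructose 6-phosphate or taken off again, the directions differed. Phosphofructokinase, the glycolytic enzyme of that step, had one gonidial gene, PFK2 (log2 fold change -1.39), and one not called, PFK1 (0.50, adjusted p = 0.0493, edgeR). Fructose-1,6-bisphosphatase, the gluconeogenic enzyme of that step, was represented in this set by FBP1, which was called somatic. FBP1 had 138 and 140 counts in gonidia and 4386 and 6487 in somatic cells (log2 fold change 5.11, SE 0.25). The aldolase gene FBA4, whose enzyme splits the bisphosphate, was not called at -0.86. Genes of the study's carbon list named FBP2, FBA1, FBA3, GAP3 and PGK1 were outside the glycolysis and gluconeogenesis set used here. Of these, FBA3 had 165470 and 175117 counts in gonidia and 199316 and 204200 in somatic cells. FBA4 had 156 and 141 in gonidia and 56 and 133 in somatic cells.

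Lower in the pathway, most genes were gonidial or not called. Glyceraldehyde 3-phosphate dehydrogenase had GAP2 at -4.06 and GAP1 at -0.36 (adjusted p = 0.123, edgeR). Phosphoglycerate kinase PGK2 was called at -1.28 on only 28, 9, 5 and 12 counts in gonidia 1 and 2 and somatic 1 and 2, the ranges overlapping in counts. The phosphoglycerate mutase PGM4 was at -2.23, and PGM5 had 11 and 5 counts in gonidia and 0 in both somatic libraries.

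The single enolase gene of the list, PGH1, makes the phosphoenolpyruvate that pyruvate kinase uses. It had 6716 and 6610 counts in gonidia and 4472 and 6461 in somatic cells, a log2 fold change of -0.47 that was not called. The ratio of the pyruvate kinase sum to PGH1, per kilobase, was 1.74 and 1.58 in gonidia and 0.549 and 0.540 in somatic cells, a 3.04-fold difference of means. This ratio is free of the scaling, and its replicates lay close together in both cell-types.

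The PCK genes split between cell-types as the pyruvate kinases did, at lower levels. PCK2 had 6 counts in each gonidial library and 286 and 551 in somatic 1 and 2, a log2 fold change of 5.90 (SE 0.39). PCK3, with 60 and 51 counts in gonidia and 4 and 1 in somatic cells, was gonidial at -4.56 (SE 0.56), and PCK1, with 11, 15, 4 and 3 counts in gonidia 1 and 2 and somatic 1 and 2, was gonidial at -2.02 (SE 0.63). The pyruvate kinase sum exceeded the PCK sum by 182 and 171 times in gonidia and by 8.69 and 6.54 times in somatic cells, per kilobase. Pyruvate kinase RNA was thus the larger of the pair in all 4 libraries, with a 23.2-fold difference in the ratio between cell-types.

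Phosphoenolpyruvate carboxylase, which turns phosphoenolpyruvate into oxaloacetate, was encoded by PEPC2, a gonidial gene with 2744 and 2073 counts in gonidia and 62 and 229 in somatic cells (log2 fold change -4.28, SE 0.36). Per kilobase, the pyruvate kinase sum was 7.06 and 8.36 times PEPC2 in gonidia and 65.7 and 25.3 times in somatic cells. The malate dehydrogenase gene MDH3, whose enzyme interconverts oxaloacetate and malate, was gonidial at -1.52.

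Pyruvate dehydrogenase genes, whose products take pyruvate onward, were lower in somatic cells. Of 7, 6 were called gonidial and none somatic, beside 46.7% and 26.0% of all genes tested, with a median log2 fold change of -2.16 beside -0.85 for all genes. The chloroplast subunits had the larger changes, with -2.52 for PDC2 (E1 alpha), -2.74 for PDH2 (E1 beta) and -3.23 for DLA2 (E2). Among the mitochondrial subunits PDH1a (E1 beta) was at -1.59, DLA1 (E2) at -1.28 and DLD1 (E3) at -2.16, while PDC1 (E1 alpha) was not called at -0.92. With TMM or DESeq2's size factors the gonidial calls were DLD1, PDC2, PDH2 and DLA2, where 38.0% and 36.4% of all genes tested were called gonidial. PYK1 at -4.20 was beyond all 7. PYK5 at -3.37 (SE 0.24) was next to DLA2 (SE 0.26), and PYK4 at -0.93 was next to PDC1.

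**Figure D4:**
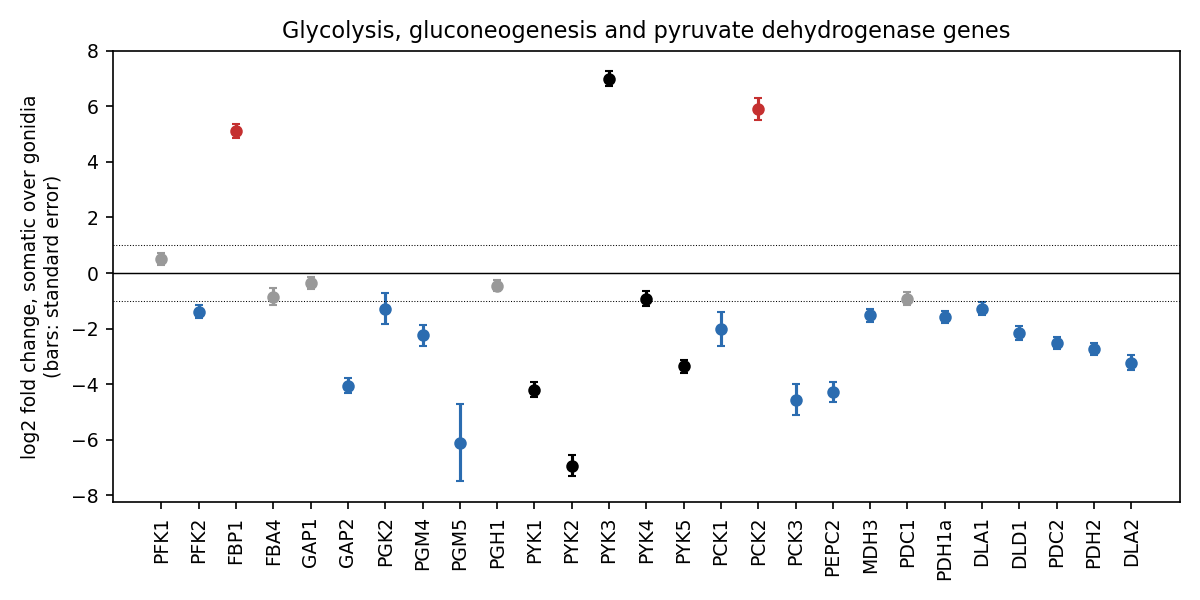
Log2 fold change of somatic over gonidia, with standard errors, for glycolysis and gluconeogenesis genes, the 5 pyruvate kinases (black) and pyruvate dehydrogenase subunits. Blue genes were called gonidial, red somatic and gray neither, and dotted lines mark 2-fold. PYK3 at 6.99, PCK2 at 5.90 and FBP1 at 5.11 stand above the other genes.

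The spread within the family was compared with that of other paralog groups. The study sums 23 groups of paralogs in carbon metabolism. The members of the pyruvate kinase group spanned 13.94 on the log2 scale, from PYK2 to PYK3, the widest of the 23, ahead of the Rubisco small subunit genes at 11.28, PCK at 10.45 and alpha-amylase at 9.10. The median of the other 22 groups was 1.83. Groups with more members can span more by their size alone, and the pyruvate kinases were among the larger ones.

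Where 46.7% of all genes tested were called gonidial and 26.0% somatic, members called in both directions occurred in 5 of the 23 groups. Beside the pyruvate kinases these were PCK, the starch-degrading alpha-amylases (AMA1 at 7.72 and AMA2 at -1.38), glutamine synthetase (GS3 at 1.97 and GS4 at -2.29, with GS1 not called at -0.96) and acyl-CoA oxidase, an enzyme of fatty acid breakdown (ACX2 at 2.93, ACX3 at 2.65, ACX4 at 2.50 and ACX1 at -1.22). The gene with the highest level per kilobase differed between the cell-types in 7 groups. Both features were found together in 3 groups, pyruvate kinase, PCK and alpha-amylase. The number of groups with calls in both directions was 4 with TMM and with DESeq2's size factors and 6 with plain totals. Whether these numbers exceed what the shares over all genes would give in groups of such sizes was not tested.

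**Figure D5:**
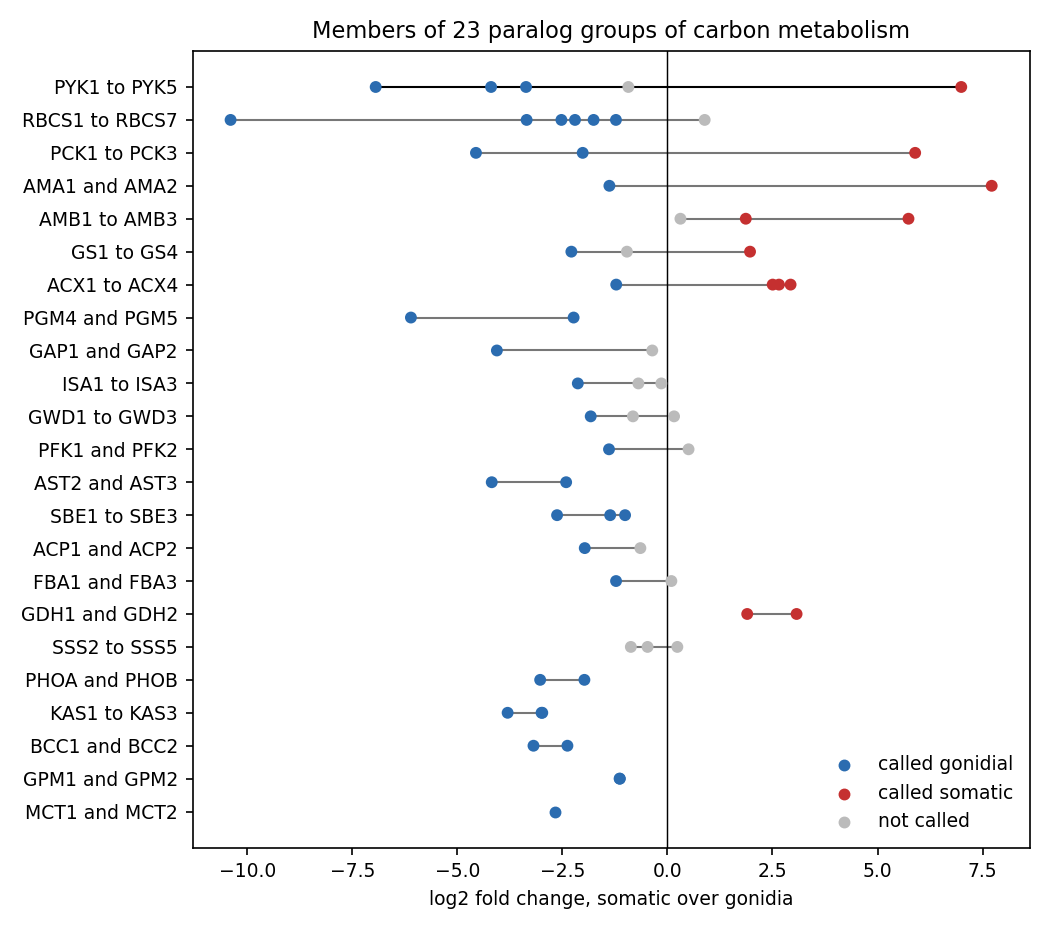
Log2 fold change of somatic over gonidia of each tested member of 23 paralog groups of carbon metabolism, ordered by spread. Blue points were called gonidial, red somatic and gray neither, and lines join the lowest and highest member. The pyruvate kinase group, at the top, spans 13.94.

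For each pyruvate kinase gene the carbon metabolism genes with the most similar profile over the 4 libraries were sought among 128 genes with a mean of at least 50 normalized counts. Likeness was the Euclidean distance of log2 levels centred on each gene's mean, so that a smaller distance is a closer profile. PYK5 was nearest to BCC1 (0.184), the biotin carboxyl carrier protein of acetyl-CoA carboxylase, and to DLA2 (0.252). PYK1 was nearest to the triose phosphate isomerase gene TPIC1 (0.367) and the aspartate aminotransferase gene AST2 (0.377). PYK2 was nearest to the NADP-dependent isocitrate dehydrogenase gene IDH3 (0.593), which had 755, 564, 5 and 7 counts, and its next neighbour, the glucanotransferase gene DPE2, was already at 1.62.

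PYK3 was nearest to AMA1 (0.381), with 2 counts in each gonidial library and 394 and 619 in somatic 1 and 2, and then to PCK2 (1.37). PYK4 was nearest to the starch branching enzyme gene SBE2 (0.139) and to FBA4 (0.202). With 4 libraries in a pair of cell-types, such profiles reflect chiefly the size of the fold change, and the distances are given as a description.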

How the data were processed

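The deposited values are counts per gene model, whole numbers without normalization for 16008 models in 4 libraries. The authors trimmed single-end reads with Trimmomatic, used STAR for alignment to genome version 2 and gave uniquely mapped reads to gene models with HTSeq, so that reads shared by near-identical copies are not counted; versions are not given in the sources used here. Strand use in the counting is not given there either.

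As in the study, the 0.3% of genes with the highest counts were set aside before a library's counts were summed to its size (45 per library, holding 25.6% to 34.9% of the counts). Of 14834 models with a count, the bottom 10% by mean normalized count were left out and 13350 were tested with edgeR 4.0.16 in R 4.3.3, using the quasi-likelihood test of somatic against gonidia with Benjamini-Hochberg adjustment over all genes (residual degrees of freedom 2, prior 17.1). The summed family replaced its 5 genes as 1 row in a second fit. Standard errors were derived from the F statistic. The code was tested on simulated data. Counting intervals cover counting error only.

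Gene lengths were those that the study's RPKM values imply. The estimates from the 2 cell-types agreed within 0.001% for the pyruvate kinases. They served to compare genes with each other, and no RPKM value is reported. No sequences or coordinates are printed, since no sequence of the genes was available here in the build of the files.

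Genes named are the 5 pyruvate kinases, the other 15 glycolysis and gluconeogenesis genes, the 7 pyruvate dehydrogenase genes, members of paralog groups called in both directions and the 2 nearest genes by profile. A few further genes of the study's carbon list are named where they share an enzyme name or an identifier prefix with these. Members and lists were chosen with earlier results of these data known. Alternatives were TMM, DESeq2 1.42.0 size factors, plain totals, DESeq2's Wald test, other filters, a test against 2-fold (glmTreat), a replicate block, leaving out each library, and shares without division by length.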

Additional observations from a re-analysis of the deposited data

How the results depend on the processing

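PYK1, PYK2, PYK3 and PYK5 kept direction and call under all 12 alternatives run. PYK4 lost its adjusted p under 0.05 with TMM (-0.34), with DESeq2's size factors (-0.23) and against a 2-fold change (-0.93, adjusted p = 0.436, edgeR's glmTreat), and became a gonidial call without gonidia 2 (-1.06) and without somatic 2 (-1.32), which made 4 gonidial members in place of 3. Gonidial calls among glycolysis and gluconeogenesis genes fell from 9 to 5 with DESeq2's size factors, while those over all genes fell from 6233 to 4853. The median log2 fold change of all genes tested moved from -0.85 to -0.15 with that scaling. The cause of the lost calls was not tested further. Summed per kilobase, the family log2 fold change was -2.07 in place of -1.32. Shares without division by length were 5.37% for PYK1 in somatic cells, 3.29% and 0.0623% for PYK2 in gonidia and somatic cells, 0.248% and 78.8% for PYK3, 2.03% and 2.63% for PYK4, whose ranges then overlapped, and 13.1% for PYK5 in somatic cells.

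Leaving out each library gave log2 fold changes of -4.62 to -3.88 for PYK1, -7.60 to -6.57 for PYK2, 6.93 to 7.06 for PYK3, -1.32 to -0.63 for PYK4, -3.69 to -3.10 for PYK5 and -1.37 to -1.27 for the family. The replicate numbers were also run as a block, although deviations of same-numbered libraries correlated at only -0.04 across genes. The block gave -4.24, -6.96, 6.99, -0.96 and -3.39 for PYK1 to PYK5 and -1.32 for the family, and changed no call of these, while PGK2 lost its call (8 gonidial glycolysis and gluconeogenesis genes in place of 9). With 2 libraries per cell-type and 3 and 8 somatic counts, depth limits the fold of PYK2 most.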

Other observations

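The identifiers of PYK3 and of both genes nearest to it by profile, AMA1 and PCK2, share the prefix Vocar.0008s, with gene numbers 405, 85 and 23. This was noticed after the values were seen. Of the carbon metabolism genes tested, 5 carry the prefix, and AMA1, PYK3 and PCK2 were called somatic, DLA1 gonidial and FBA3 neither. Of all 415 genes tested with the prefix, 114 (27.5%) were somatic, next to 26.0% of all genes. PYK1, PYK2, PYK4 and PYK5 each carry a different prefix.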
